A study of Mus musculus with 60 samples.

Results

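In 6 H3K27me3 peak lists made from mouse hippocampal nuclei, 1523 promoter peaks of 1 list were overlapped by a peak in each other list. These peaks are the members, and a promoter class was asked of that 1 list alone. The members were selected on measured values. Each is a peak of the list from sedentary mice in the SIT arm that is annotated as promoter, is narrower than 20000 bp and shares at least 1 bp with a peak in each of the other 5 lists. That list held 10279 peaks, of which 2616 were annotated as promoter, meaning within 3 kb of an annotated transcription start site. Of these, 2348 were under the width limit and 1523 (64.9%) were members. The other 825 promoter peaks under the limit lacked a match in 1 or more lists, and 268 promoter peaks were at or over the limit.

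The lists came from CUT&RUN-seq, in which an antibody directs a nuclease to cut and release DNA around a histone mark, on 20 H3K27me3 samples. Male Emx1-NuTRAP mice (Emx1-IRES-Cre crossed with NuTRAP, so that nuclei of the Emx1 lineage carry a tag that can be pulled down) were housed in pairs. The exercised mice could run on a wheel in the cage between postnatal days 21 and 41, the sedentary mice stayed in standard cages, and all were killed the next day. In the SIT arm nuclei and RNA came from the same homogenate of both hippocampi, with 4 samples per condition. In the left separate and right separate arms nuclei came from one hemisphere of other mice, with 3 samples per condition in each. The Emx1 lineage is known to hold excitatory neurons and can also give rise to glia of the dorsal telencephalon. The study checked tagged cells by flow cytometry with a neuronal and an astrocytic marker, and the peak lists themselves do not give the cell types of the nuclei. There is 1 list per group, which gives positions without counts or signal and has no replicate values, so no SD over mice can be given. The study states a least depth for its libraries, but the depth behind each list is unknown. How many of a group's samples entered its list is not known either, and a legend of the study gives fewer SIT mice than the labels. Fewer cells carrying the mark and less of the mark per cell cannot be told apart in such lists.

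H3K27me3 is deposited by Polycomb repressive complex PRC2, whose catalytic subunit is EZH1 or EZH2, and is read by CBX proteins of PRC1. It is best known at promoters of developmental regulators, which it keeps silent in lineages that do not use them. In mature neurons it lies over genes of other cell fates and of other brain regions. H4K8ac, the other mark of the series, is an acetylation found at active promoters.

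Promoter sequences of members are shown for 6 families of developmental regulators. In each family the member shown is that with the largest median width of matching peaks over the 6 lists. Shown too is the member promoter with the fewest CpG dinucleotides relative to its base composition among those matched to the reference table. The sequences are from RefSeq (GRCm38.p6) and have each CpG in capitals. They run from 250 bases before to 50 bases after the start site on the gene's strand. Irx3 is an Iroquois homeobox gene (chr8:91801605-91801904, minus strand). Foxb2 is a forkhead gene (chr19:16873781-16874080, minus strand). Tbx1 is a T-box gene of the pharyngeal arches (chr16:18588850-18589149, minus strand). Atoh1 is the proneural helix-loop-helix gene of cerebellar granule cells and hair cells (chr6:64728875-64729174, plus strand). Bnc1 encodes a zinc-finger protein of keratinocytes (chr7:81992250-81992549, minus strand). Wif1 encodes a secreted WNT inhibitor (chr10:121033754-121034053, plus strand). The promoter without a CpG belongs to 4930405D11Rik (chr11:90804441-90804740, plus strand).
Irx3: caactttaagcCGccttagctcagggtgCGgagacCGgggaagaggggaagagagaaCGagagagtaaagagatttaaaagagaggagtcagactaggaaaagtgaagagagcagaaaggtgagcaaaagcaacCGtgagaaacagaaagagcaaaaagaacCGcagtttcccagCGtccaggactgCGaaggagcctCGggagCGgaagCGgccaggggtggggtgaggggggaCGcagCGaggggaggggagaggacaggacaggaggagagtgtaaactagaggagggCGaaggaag
Foxb2: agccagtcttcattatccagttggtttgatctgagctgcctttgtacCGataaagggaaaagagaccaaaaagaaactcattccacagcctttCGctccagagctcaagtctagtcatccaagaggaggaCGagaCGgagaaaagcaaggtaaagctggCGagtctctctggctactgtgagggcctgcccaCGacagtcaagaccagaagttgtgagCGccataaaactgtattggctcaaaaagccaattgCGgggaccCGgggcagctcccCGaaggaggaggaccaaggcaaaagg
Tbx1: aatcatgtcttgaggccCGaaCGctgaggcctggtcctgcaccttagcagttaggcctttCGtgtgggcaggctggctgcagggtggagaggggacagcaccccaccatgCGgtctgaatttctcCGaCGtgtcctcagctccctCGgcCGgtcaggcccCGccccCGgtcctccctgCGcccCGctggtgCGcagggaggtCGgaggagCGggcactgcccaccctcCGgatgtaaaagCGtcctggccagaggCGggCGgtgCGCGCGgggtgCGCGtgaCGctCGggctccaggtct
Atoh1: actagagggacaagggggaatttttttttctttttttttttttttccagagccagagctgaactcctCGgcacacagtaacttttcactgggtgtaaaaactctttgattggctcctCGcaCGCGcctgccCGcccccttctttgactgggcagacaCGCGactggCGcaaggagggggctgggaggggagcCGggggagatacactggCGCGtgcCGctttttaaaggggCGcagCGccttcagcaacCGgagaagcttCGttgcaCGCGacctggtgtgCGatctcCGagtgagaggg
Bnc1: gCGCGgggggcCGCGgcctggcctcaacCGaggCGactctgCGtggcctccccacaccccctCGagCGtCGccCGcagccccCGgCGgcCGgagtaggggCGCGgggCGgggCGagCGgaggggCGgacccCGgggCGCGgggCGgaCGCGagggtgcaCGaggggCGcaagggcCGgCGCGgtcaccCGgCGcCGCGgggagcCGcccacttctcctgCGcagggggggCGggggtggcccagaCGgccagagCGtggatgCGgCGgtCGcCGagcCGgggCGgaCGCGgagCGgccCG
Wif1: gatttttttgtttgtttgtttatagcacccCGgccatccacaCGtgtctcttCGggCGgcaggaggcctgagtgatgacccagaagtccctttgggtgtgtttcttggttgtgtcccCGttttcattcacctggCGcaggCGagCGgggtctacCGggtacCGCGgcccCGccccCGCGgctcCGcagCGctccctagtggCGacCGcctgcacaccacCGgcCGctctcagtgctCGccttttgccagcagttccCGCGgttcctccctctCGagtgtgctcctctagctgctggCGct
4930405D11Rik: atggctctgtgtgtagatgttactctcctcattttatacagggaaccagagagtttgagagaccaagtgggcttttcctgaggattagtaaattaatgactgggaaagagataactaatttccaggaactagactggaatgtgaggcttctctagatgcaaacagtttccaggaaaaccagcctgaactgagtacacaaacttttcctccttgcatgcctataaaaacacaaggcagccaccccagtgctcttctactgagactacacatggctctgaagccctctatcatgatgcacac

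These 7 promoters lay wholly inside an H3K27me3 peak in all 6 lists, as did 502 of 1022 member promoters (49.1%) matched to the reference table. They held 14 CpG dinucleotides (Irx3), 10 (Foxb2), 26 (Tbx1), 20 (Atoh1), 50 (Bnc1), 25 (Wif1) and 0 (4930405D11Rik). The G+C content ran from 44.0% in 4930405D11Rik to 83.3% in Bnc1. The ratio of observed CpG to that expected from the C and G content was 0.98 in Bnc1, 0.85 in Wif1, 0.84 in Atoh1, 0.75 in Irx3, 0.73 in Tbx1 and 0.50 in Foxb2. The members thus included promoters with a dense CpG island and promoters with no CpG at all. The Tbx1 start in the reference lay 1930 bp from the start to which the peak had been assigned, so its letters are those of an alternative start within the same peak.

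The members took 64.9% of promoter peaks under the limit because presence differed between lists. Of the 2348 peaks, 745 had no match in the exercised right separate list, 282 in the sedentary left separate list, 181 in the exercised left separate list, 43 in the sedentary right separate list and 32 in the exercised SIT list. For 430 peaks the exercised right separate list was the only one without a match. That list held 9899 peaks, against 14491 to 25693 in the other 4 lists matched to the sedentary SIT list. Promoter peaks were matched more often than all peaks of the sedentary SIT list under 20000 bp in each case, with 68.3% against 55.04% in the exercised right separate list and 98.6% against 98.0% in the exercised SIT list. All 268 promoter peaks at or over the limit were present in all lists. Just inside the limit were members at Foxb2 (19917 bp), Tdh, which encodes threonine dehydrogenase (19920 bp), and the microRNA gene Mir6365 (19954 bp), and just outside were peaks at Nr5a2 (20083 bp), Tshz2 (20178 bp) and Grik3 (20221 bp).

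The members were assigned to 1391 gene symbols, and 4 members had none. A start site lay within 1 kb in 1287 members (84.5%), between 1 and 2 kb away in 119 and between 2 and 3 kb away in 117. The start site itself lay inside the peak in 1181 members (77.5%), against 61.2% of the other promoter peaks under the limit and 97.0% of those at or over it. Of 1511 member transcripts found in GENCODE M21, 1369 (90.6%) belonged to protein-coding genes, against 88.7% in the other promoter peaks under the limit and 80.5% over all peaks of the list. The same gene was assigned in all 6 lists for 1453 members, and for 1291 of them (84.8% of all members) every list also had a promoter peak for it. In total 100 genes had more than 1 member, led by Ptprm, a receptor tyrosine phosphatase gene, with 7, and Piwil4, a gene of the piRNA pathway, with 6.

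Members lay on each autosome, with 134 on chromosome 2 and 126 on chromosome 11. On chromosome X, 1 of 19 promoter peaks under the limit was a member, at Irs4, an insulin receptor substrate gene. Its matched width was 16208, 19249, 12608, 15293, 17152 and 2441 bp in the 6 lists. The exercised right separate list held 6 peaks on X, of which 3 were promoter peaks, against 38 to 136 peaks on X in the others. Without X the set had 1522 members. Within 50 kb of another member lay 409 members (26.9%), in 177 runs, of which 18 spanned 3 or more genes. One such run on chromosome 7 held the fibroblast growth factor genes Fgf3, Fgf4 and Fgf15 with the cyclin gene Ccnd1, and one on chromosome 6 held the homeobox genes Tlx2 and Lbx2 with Dok1 and Rtkn.

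The width of the H3K27me3 interval at the members was then compared between lists. The matched width is the summed width of all peaks of a list that touch the member, and values for a member are given throughout in the order sedentary SIT, exercised SIT, sedentary left separate, exercised left separate, sedentary right separate and exercised right separate. The median matched width over members was 6445, 8708, 6448, 7038, 8251 and 4432 bp in that order. Over all peaks of the sedentary SIT list under 20000 bp that had a match, the medians were 4201, 7630, 4834, 5503, 6505 and 3709 bp, which lie below the member medians. Those peaks needed a match in 1 list, while members needed one in all, and wide peaks meet that rule more easily. Against the 3392 non-promoter peaks under the limit present in all lists, whose medians were 5579.5, 10280.5, 5803, 7167.5, 8663.5 and 3730 bp, members were wider in the sedentary SIT, sedentary left separate and exercised right separate lists, and narrower in the other 3 lists. The exercised SIT list gave the largest matched width for 704 members (46.2%) and the sedentary right separate list for 458 (30.1%). The exercised right separate list gave the smallest for 1055 members (69.3%). The member order by width was similar between lists, with Spearman's rho from 0.59 to 0.84 over the 15 pairs of lists (1523 members, which share the anchoring peak).

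**Figure D1:**
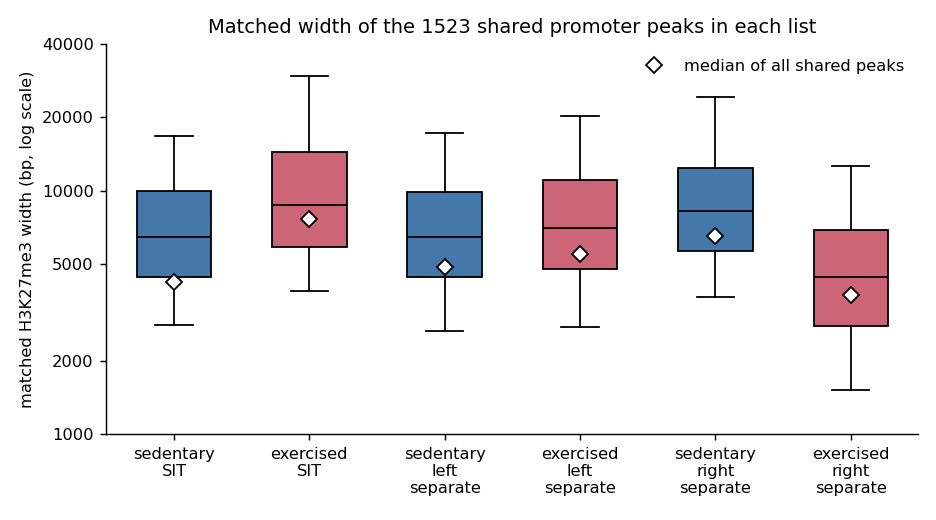
Matched H3K27me3 width of the 1523 members (vertical, bp on a log scale) in each of the 6 lists, as boxes from the lower to the upper quartile with the median as a line and whiskers at the 5th and 95th percentiles. White diamonds are the medians of all matched peaks of the sedentary SIT list under 20000 bp, which lie below the member median in each list, and the exercised right separate box (median 4432 bp) is the lowest.

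The largest median over the 6 lists was that of B020031M17Rik on chromosome 13, with 5780, 177168, 114015, 64679, 174937 and 16757 bp. Its narrow interval in the sedentary SIT list was part of a domain more than 10 times as wide in 4 of the other 5 lists. Irx3 followed, with 18448, 48552, 46421, 38348, 46630 and 17762 bp, and its 2 narrow values came from the sedentary SIT and exercised right separate lists. The rule holds the sedentary SIT width of every member under 20000 bp, so a low value in that list is partly set by the selection. Vcam1, which encodes an adhesion molecule of activated endothelium, had 10950, 66524, 41691, 35028, 40152 and 11446 bp, with the same 2 lists low. Pdgfra, the receptor gene that marks oligodendrocyte precursors, had 19227, 36491, 20437, 36209, 36870 and 17158 bp. Lgr5, a gene of stem cells that encodes an R-spondin receptor, had 19029, 26238, 25901, 30394, 31875 and 20086 bp. The narrowest member was Fam107a, with 1936, 4647, 2294, 1765, 3164 and 1974 bp, followed by Gm21671, Greb1, H2-Bl and Col6a6, with medians up to 2366 bp.

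The median ratio of the widest to the narrowest matched width of a member was 2.24. In 616 members (40.4%) the ratio was under 2, and in 212 (13.9%) it was 5 or more. The most variable members were Dmbx1, a homeobox gene, Ptprm, 4930478P22Rik, 4930438E09Rik and Plcb4, a phospholipase gene. Dmbx1 had 6542, 88282, 4620, 8530, 7536 and 1528 bp. Ptprm had 3586, 173404, 8145, 8276, 9594 and 6114 bp at its most variable member. In both, 1 wide peak in the exercised SIT list stood apart from values under 10000 bp in the other lists. At 4930478P22Rik the wide value was in the exercised left separate list, at 57251 bp against 1460 to 7710 bp elsewhere.

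Bases covered by all 6 lists were then taken as the core of each member. The median core was 3501 bp (quartiles 2052 and 5833.5 bp), which was 59.3% of the sedentary SIT peak. The core made up 50% or more of the peak in 949 members (62.3%), and 22 members had no base covered by all lists although each list touched them. Among the members with a core of 0 bp were Zfp536, a zinc-finger repressor gene, and 4930438E09Rik. The assigned start site lay in the core in 845 members, which was 71.5% of the 1181 with the start inside the peak. At least 2 peaks of a list covered a single member in 6.83% of members in the exercised SIT list, 9.46% in the sedentary right separate list, 13.2 and 15.7% in the exercised and sedentary left separate lists, and 20.6% in the exercised right separate list.

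Around the start site the intervals were longer into the gene than away from it. Over the 1181 members with the start inside, the sedentary SIT peak ran a median of 2583 bp upstream and 3632 bp downstream. The same held in each other list, with 3333 and 4512 bp in the exercised SIT list and 1798 and 2383 bp in the exercised right separate list. The downstream side was the longer in 62.4 to 65.0% of members per list. At the start site 98.0% of these members were covered in the exercised SIT list, 97.0% in the sedentary right separate list, 91.7 and 92.0% in the sedentary and exercised left separate lists and 76.1% in the exercised right separate list. At 5000 bp downstream the share was between 22.2% in the exercised right separate list and 52.2% in the exercised SIT list, and at 5000 bp upstream it was between 16.0 and 39.97% in the same lists.

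**Figure D2:**
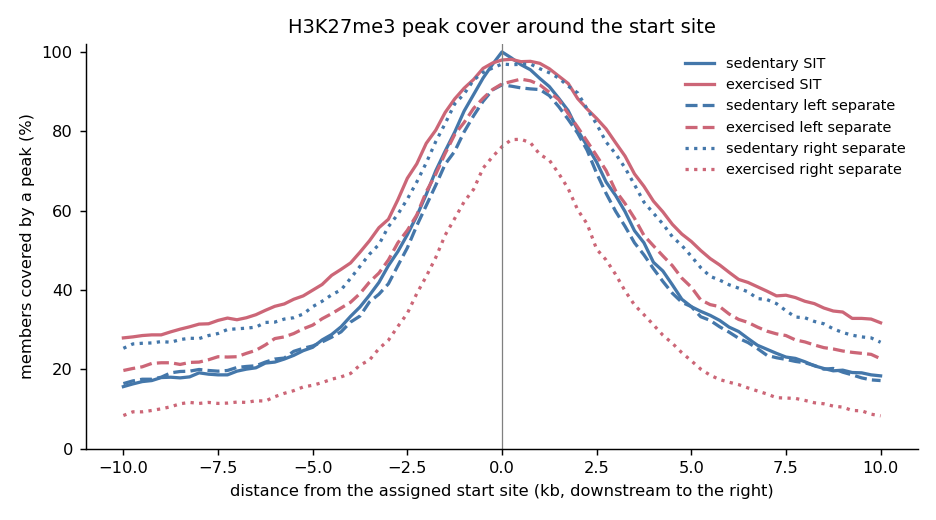
Share of the 1181 members with the start inside their sedentary SIT peak that a peak of each list covers (vertical, %) against the distance from the assigned start site (horizontal, kb, transcription to the right). The sedentary SIT line is 100% at the start by construction, and the exercised right separate line is the lowest at every distance shown, with 76.1% at the start.

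Exercised and sedentary lists were compared arm by arm. In the SIT arm the median matched width was 6445 bp in the sedentary and 8708 bp in the exercised list, a median ratio of 1.27 (log2 0.34). In the left separate arm it was 6448 and 7038 bp, a median ratio of 1.06 (log2 0.08). In the right separate arm it was 8251 and 4432 bp, a median ratio of 0.575 (log2 -0.80). The exercised list was the wider in 1254 members (82.3%) in SIT, 904 (59.4%) in left separate and 66 (4.33%) in right separate. The SIT value is a description, since the rule bounded the sedentary width there and not the exercised width. The mean of the 3 arm medians was -0.13 ± 0.60 on the log2 scale (SD, n = 3 arms). No p is given over arms, since the rule used the SIT widths and an exact test on 3 arms cannot give a p below 0.25. Without the right separate arm the mean was 0.21.

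The same differences ran through all peaks of the sedentary SIT list under 20000 bp, with median log2 ratios of 0.57 in SIT (9552 peaks), 0.17 in left separate (7365) and -1.03 in right separate (5316). Divided by these, the member medians changed sign in each arm, to -0.23, -0.09 and 0.23. The other promoter peaks under the limit that had a match in both lists of the arm had medians of 0.37, 0.08 and -0.93, near those of the members. Non-promoter peaks under the limit that were present in all lists (3392) had 0.70, 0.21 and -1.14. A smaller shift than in the whole list is therefore not particular to the members. In each arm the list with the wider members was also the list with more peaks, at 25693 against 10279 in SIT, 18262 against 14491 in left separate and 21790 against 9899 in right separate. The part of list length in the widths was not tested.

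At least 2-fold wider in the exercised list were 265 members (17.4%) in SIT, where 32.5% of all shared peaks passed, 93 (6.11%) in left separate, where 14.3% passed, and 1 in right separate, where 0.169% passed. At least 2-fold narrower were 5 members (0.328%) in SIT, where 1.25% of all shared peaks passed, 28 (1.84%) in left separate, where 4.90% passed, and 623 (40.9%) in right separate, where 51.1% passed. The member shares lay below these backgrounds in each arm and direction. The members wider in both SIT and left separate and narrower in right separate numbered 723 (47.5%). These are the directions of the medians over all shared peaks, and the share of this pattern over those peaks was not counted. In all 3 arms the exercised width was the larger for 29 members (1.90%) and the smaller for 110 (7.22%). Over the 4915 peaks of the sedentary SIT list under 20000 bp that were present in all lists, these shares were 2.79 and 4.60%. No excess is read from these counts, and the genes named from them are a description. Spearman's rho between the log2 ratios of arms over the 1523 members was 0.16 for SIT and left separate, -0.27 for SIT and right separate and -0.06 for left and right separate.

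**Figure D3:**
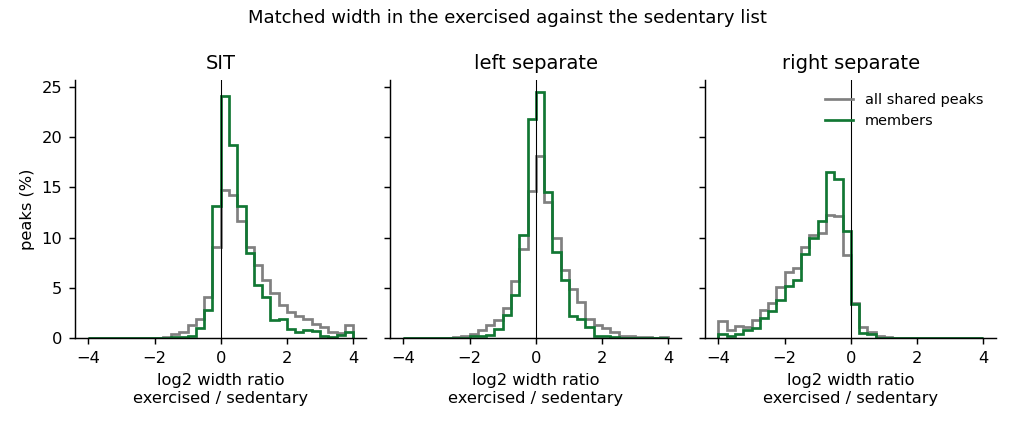
Distribution of the log2 ratio of matched width, exercised over sedentary (horizontal), in percent of peaks (vertical), for members (green) and all shared peaks of the sedentary SIT list under 20000 bp (grey) in the 3 arms, with values beyond 4 placed in the end bins. The member medians are 0.34, 0.08 and -0.80, and the grey distribution has more weight far from 0 in each arm.

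Members that went the same way in the 3 arms are named here by the size of their least change. Slc4a5, a sodium bicarbonate cotransporter gene, had 3670, 10558, 3400, 8698, 2809 and 9195 bp, with log2 ratios of 1.52, 1.36 and 1.71. Its second member, 2892 bp wide in the sedentary SIT list, shared 3 of these wide exercised peaks and had ratios of 1.87, 1.29 and 0.58. The exercised values of the first lay above its sedentary values in every arm without overlap. Hal, which encodes histidine ammonia-lyase, had 3288, 9949, 2121, 4165, 1946 and 3197 bp (log2 ratios 1.60, 0.97 and 0.72). Adgrg6, an adhesion receptor gene of Schwann cells, and Tekt3, a ciliary tektin gene, had least log2 ratios of 0.36 and 0.34. In the other direction stood Ifna7, an interferon alpha gene, with 2883, 1197, 9568, 4402, 7096 and 1718 bp (log2 ratios -1.27, -1.12 and -2.05). Ccnd1, the cyclin D1 gene that drives cells into the cycle, had 7398, 3941, 6633, 3825, 7904 and 2490 bp (log2 ratios -0.91, -0.79 and -1.67), and its 3 sedentary values were all above its 3 exercised values. Zfp536, Atf7ip2 and Tal2, a helix-loop-helix gene, were the next, with largest log2 ratios of -0.51, -0.45 and -0.38. None of these 9 genes has replicate values, and 29 and 110 members in all shared these directions. The choice by least change favours members whose exercised and sedentary values separate, and the 3 arms are not replicates of a condition.

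Member genes were then counted in gene lists. Of 21900 protein-coding genes in the reference, 1245 (5.68%) were the assigned gene of a member. Another 187 (0.854%) had no member but a promoter peak at or over 20000 bp. The shares below stand beside these backgrounds and were not tested against them. Of 133 non-Hox homeobox and paired-box genes, 36 (27.1%) were members and another 66 had a promoter peak at or over 20000 bp. Of 54 developmental helix-loop-helix genes 15 (27.8%) were members and 9 had a wide peak, and of 42 GATA, GLI, SALL, ZIC, TFAP2 and related zinc-finger genes 12 (28.6%) and 13. Forkhead genes had 7 members among 44 (15.9%) and SOX and T-box genes 3 among 35 (8.57%), each with 11 wide peaks. No Hox gene was a member. The start sites of all 39 Hox genes lay inside a sedentary SIT peak at or over 20000 bp, and such a peak is assigned to a single gene.

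Among the homeobox members Lhx3, a gene of motor neurons and the pituitary, had 17920, 27137, 21555, 23803, 27396 and 17844 bp. Alx1, a gene of craniofacial mesenchyme, had 14003, 30692, 27997, 12856, 28021 and 11321 bp. Foxb2 had 19917, 28708, 27133, 26249, 27840 and 15085 bp, and Foxq1 17201, 28351, 22037, 20656, 28264 and 11323 bp. In each of the 4 the exercised right separate value was the lowest. Foxe1, a thyroid forkhead gene, had a median of 24332 bp. The widest helix-loop-helix members are given next. Atoh1 had 19695, 19430, 16519, 17119, 20171 and 14208 bp. Neurog1, a proneural gene of sensory ganglia, had 17777, 17197, 17508, 17338, 17142 and 12304 bp, so that the lists other than exercised right separate lay between 17142 and 17777 bp. Ferd3l had 13045, 14882, 16418, 14362, 15138 and 14205 bp. Of the zinc-finger genes Bnc1 had 19770, 27091, 21109, 21398, 22249 and 18840 bp, Osr1, a kidney and heart regulator, 17867 to 21767 bp, and Gli3, an effector of hedgehog signalling, 12812 to 16835 bp. Tbx1 had 12497, 16017, 13144, 13190, 19216 and 10683 bp, and Sox7 had 7032 to 13022 bp. Sox6 ranged from 3690 bp in the sedentary left separate list to 35400 bp in the exercised SIT list.

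The WNT list had the largest share of members, which are bounded at 20000 bp. Of its 44 ligands, receptors and inhibitors 22 (50%) were members, and 1 had a wide promoter peak. Without a limit on width or class, 23 of the 44 WNT genes and 107 of the 133 homeobox genes were assigned a peak present in all lists. The ligands were Wnt1, Wnt2b, Wnt3, Wnt3a, Wnt5a, Wnt6, Wnt8a, Wnt9b, Wnt10b, Wnt11 and Wnt16. The receptors were Fzd2, Fzd5 and Fzd6, the secreted inhibitors Wif1, Dkk1, Dkk2, Sfrp1, Sfrp2 and Sfrp5, and the R-spondins Rspo1 and Rspo4. Wif1 had 16064, 30071, 20769, 21679, 23703 and 16357 bp. Wnt3a, a ligand made by the cortical hem that the growth of the hippocampus needs, had 14722, 16811, 14014, 14485, 16166 and 9023 bp, and Sfrp2 had 10979, 16514, 12608, 13441, 12660 and 11136 bp. The median over the 22 genes of the median matched width was 6743 bp, near the 6856 bp over all member genes. The starts of 21 of the 44 genes lay inside a member, against 4.22% of 21938 protein-coding start sites.

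Of 68 ligands and inhibitors of the BMP, TGF-beta, FGF, hedgehog and Notch pathways 18 (26.5%) were members. Bmp7 had 16667, 18676, 14325, 14325, 17286 and 10268 bp, Fgf20 had 13386 to 23509 bp, and Fst, the activin inhibitor follistatin, had 5514 bp in the exercised right separate list against 12244 to 14883 bp in the others. Shh, the sonic hedgehog gene, and Fgf8 were also members. Neuropeptides and their receptors had 26 members among 69 (37.7%), and no gene outside these members was assigned a promoter peak at or over 20000 bp, although the start of 1 gene lay inside such a peak. Their median width was 5702.5 bp, against 6856 bp over all member genes. Tac1, the substance P precursor gene, had 18511, 19667, 16859, 17100, 20739 and 14210 bp, and Adcyap1, which encodes PACAP, had 12241 to 15816 bp. Mc3r, a melanocortin receptor gene, ran from 6576 bp in the exercised right separate list to 15256 bp in the exercised SIT list. Of 46 monoamine and acetylcholine receptor genes 6 (13.0%) were members. Adra2b, an alpha-2 adrenergic receptor gene, had 14718, 15690, 13775, 15337, 17092 and 16530 bp, Chrm2 had 11156 to 19274 bp and Adrb3 had 5660 to 13113 bp.

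**Figure D4:**
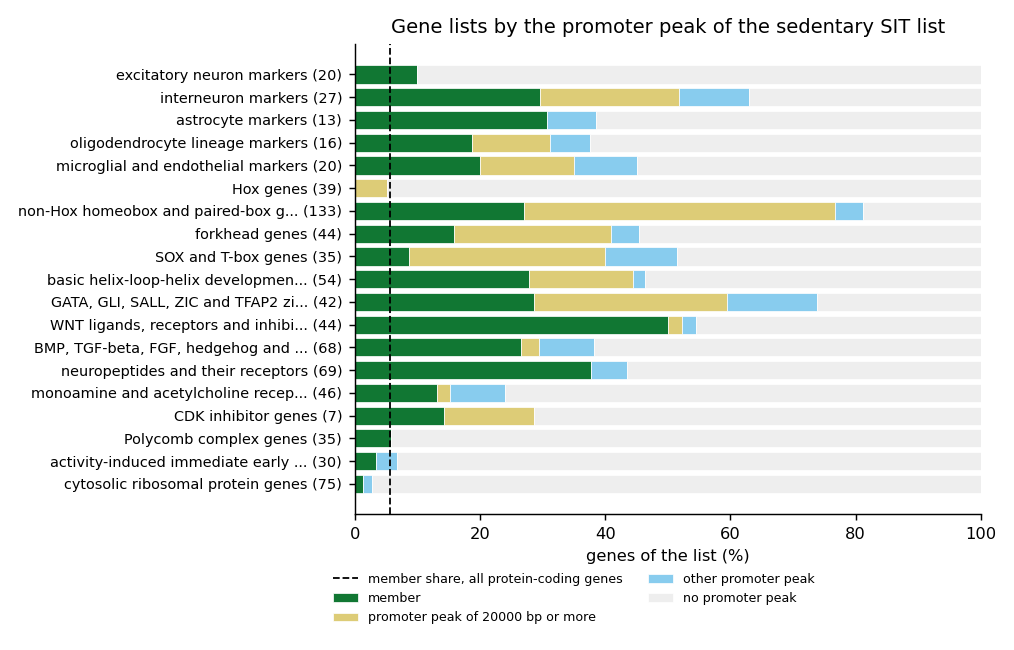
Share of the genes of 19 lists (horizontal, %, number of genes in brackets) that were the assigned gene of a member (green), had instead a promoter peak of 20000 bp or more (yellow) or another promoter peak (blue) in the sedentary SIT list, or none (grey). The dashed line is the member share of all protein-coding genes, 5.68%, and the WNT list has the longest green bar at 50%.

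The labelled nuclei were checked against marker lists. Among the excitatory neuron markers Slc17a6, the vesicular glutamate transporter gene of subcortical neurons, was a member and had 8711, 14260, 7638, 7148, 12218 and 1760 bp. Among 27 interneuron markers 8 (29.6%) were members, and 6 more had a wide promoter peak. The count was 3 when the start site of the gene had to lie inside a member, and 15 with a peak of any width and class present in all lists. For the latter count no share over all protein-coding genes is given. The 8 were Reln (16867, 15349, 15286, 12772, 15352 and 6735 bp), Sst (8619, 10592, 10472, 7403, 11565 and 5664 bp), Adarb2, Npy, Gbx1, Pvalb, Kit and Vip. Of the lists of other cells 4 of 13 astrocyte markers (Gjb6, Aqp4, Fgfr3 and Aldh1l1), 3 of 16 oligodendrocyte lineage markers (Pdgfra, Nkx6-2 and Bcas1) and 4 of 20 microglial and endothelial markers (Foxq1, Flt1, Tmem119 and Cldn5) were members. With the start inside a member the counts were 2 for astrocyte, 3 for oligodendrocyte lineage and 3 for microglial and endothelial markers. Of 21938 protein-coding start sites 4.22% lay inside a member. Gjb6, a connexin gene, had 9152 to 12363 bp, and Flt1, a VEGF receptor gene, had 12303 to 20419 bp. What share of the nuclei came from each cell type was not tested.

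Of 75 cytosolic ribosomal protein genes 1 was a member, Rpl17, with the peak more than 2 kb from its start, and no start of the 75 lay inside a peak of the sedentary SIT list. Of 30 activity-induced immediate early genes 1 (3.33%) was a member, against 5.68% of all protein-coding genes. It was Atf3, a stress-induced factor, with 19834, 22325, 19644, 17389, 19298 and 14047 bp. Among the Polycomb complex genes Cbx8, which encodes a reader of the mark, was a member and had 10768 to 12609 bp. Of 7 CDK inhibitor genes 1 was a member, Cdkn2c (6994 to 13304 bp), with its start 1923 bp outside the peak, so that none was a member by a start inside. Single members among lists of this length are not read as a difference from the background.

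The exercise comparison by gene list followed the arms. The median log2 ratio in SIT, left separate and right separate was 0.20, -0.0013 and -0.56 over 39 homeobox members, 0.19, 0.05 and -0.49 over 15 helix-loop-helix members, 0.50, 0.05 and -0.60 over 23 WNT members and 0.29, 0.0044 and -0.60 over 26 neuropeptide members. Over the 18 BMP, FGF and related members it was 0.21, 0.09 and -0.91, and over the 8 forkhead members 0.56, -0.16 and -1.04. In SIT all these medians were above 0 and in right separate all were below 0, as for members in general (0.34 and -0.80). Of the 39 homeobox members 5 were at least 2-fold wider in the exercised SIT list and 12 at least 2-fold narrower in the exercised right separate list, and of the 26 neuropeptide members 0 and 8. Over all members 17.4 and 40.9% passed these limits, and over all shared peaks 32.5 and 51.1%.

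Base composition was read from the genome (GRCm38.p6). The median G+C content of the member peaks was 48.0%, against 47.5% in the other promoter peaks under the limit and 43.7% in non-promoter peaks. The median CpG ratio was 0.295 in members, 0.254 in the other promoter peaks, 0.324 in promoter peaks at or over the limit and 0.20 in non-promoter peaks. Within 1425 members with at least 300 bp of core and of remainder, the median CpG ratio was 0.32 in the core and 0.22 in the rest of the peak, and it was higher in the core in 978 (68.6%). In windows of 300 bases at the assigned start (250 before and 50 after), the median CpG ratio was 0.498 over 1389 member genes, 0.38 over 631 genes of other promoter peaks, 0.639 over 228 genes of peaks at or over the limit and 0.524 over 21931 protein-coding genes. A ratio of 0.6 or more was found in 37.3% of member genes and 44.4% of all protein-coding genes.

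Short motifs were searched in the same windows on both strands. The Sp1-type box GGGCGG was present in 47.0% of member windows, 37.2% of other promoter peak windows and 43.0% of protein-coding windows. TATAAA was present in 10.2, 12.4 and 12.7% in that order, CCAAT in 35.9, 37.7 and 39.0%, the homeobox-type TAATTA in 4.10, 6.02 and 5.30% and the E-box CAGCTG in 16.6, 18.2 and 15.6%. GGGCGG adds a CpG by its own letters. With member genes in 4 groups of equal size by median matched width, the median CpG ratio of their windows was 0.44 in the narrowest group, then 0.52, 0.51 and 0.52. A match describes the letters of the window and is not a bound site.

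H4K8ac peaks were rare on the members. In the sedentary SIT H4K8ac list 15 of 1523 members were overlapped (0.985%, exact 95% binomial interval 0.552 to 1.62%), in the exercised SIT list 32 (2.10%, 1.44 to 2.95%), in the sedentary left separate list 23 (1.51%, 0.96 to 2.26%), in the exercised left separate list 7 (0.46%, 0.185 to 0.945%), in the sedentary right separate list 20 (1.31%, 0.804 to 2.02%) and in the exercised right separate list 8 (0.525%, 0.227 to 1.03%). The intervals cover counting error over peaks and not variation between mice. Among the 825 other promoter peaks the shares ran from 0.485 to 2.91%, and among all peaks of the sedentary SIT list under 20000 bp from 0.154 to 1.02%. Of 21938 protein-coding start sites 4.74 to 18.5% lay inside an H4K8ac peak of the same lists. The median distance from a member to the nearest H4K8ac peak was 49510 bp in the exercised SIT list, which had the most H4K8ac peaks, and 139679 bp in the exercised left separate list, which had the fewest. Per the study's methods some exercised H4K8ac libraries were left out by a quality limit, and what part this had in the shares was not tested.

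**Figure D5:**
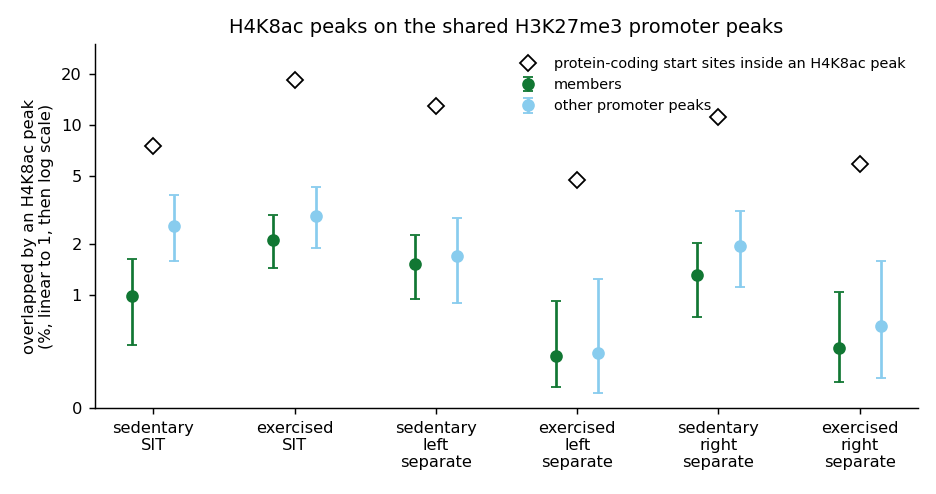
Share overlapped by an H4K8ac peak (vertical, %, linear up to 1 and log above) in each of the 6 H4K8ac lists, for members (green) and other promoter peaks of the sedentary SIT list under 20000 bp (light blue), with exact 95% binomial intervals, and the share of protein-coding start sites inside an H4K8ac peak (white diamonds). Members lie between 0.46 and 2.10%, below the diamonds at 4.74 to 18.5%.

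In all 55 members (3.61%) were overlapped in at least 1 H4K8ac list, 21 in 2 or more and 3 in all 6. Of the 825 other promoter peaks under the limit, 46 (5.58%) were overlapped in at least 1. The overlap was at the edge. Of 105 overlaps of a member in a list, the H4K8ac peak reached past the end of the member in 85, and the median overlap was 600 bp or 5.95% of the member. The 3 members overlapped in all lists were Ccdc144b, Stpg2, a sperm-tail gene, and Zfp105, a zinc-finger gene. At Ccdc144b (H3K27me3 16686, 16216, 16124, 16708, 16288 and 12825 bp) the H4K8ac overlap was between 550 and 1477 bp and the H4K8ac peak was assigned in every list to the neighbouring Acad9, a mitochondrial dehydrogenase gene. At Stpg2 it was between 866 and 2055 bp of a member 10311 bp wide, and at Zfp105 between 170 and 838 bp of one 7177 bp wide. Spopl, a ubiquitin ligase adaptor gene, Rhbdd1, a rhomboid protease gene, and Mos, the kinase gene of oocyte maturation, were overlapped in 5 lists, by at most 786, 451 and 1382 bp. Col4a3, a basement membrane collagen gene, was overlapped in 4, each time by a peak assigned to Mff, a mitochondrial fission gene next to it. Mos and Spopl had steady H3K27me3 widths, of 5888 to 7107 bp and 16208 to 18816 bp over the 6 lists. Bloc1s6os and 4930592C13Rik were overlapped in 4 lists and Nom1 in 3.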

How the data were processed

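CUT&RUN-seq peak lists of H3K27me3 and H4K8ac were analysed, 1 list per antibody, condition and arm. Per the study's methods, alignment was by Bowtie2 (2.4.1, per the submitters' processing notes). The authors then ran SEACR (stringent, threshold 0.01) to call peaks and annotated them with ChIPseeker (1.8.6) on mm10 with a promoter window of 3 kb. How libraries were combined into a list is not given in the sources used here. The deposited columns used were start, end and width in bp and distance to the start site, with no counts, signal or p-value. IgG samples were not analysed here.

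Each member was matched to all peaks of a list that shared at least 1 bp. Groups came from the labels. Widths were compared arm by arm without a p, since the planned exact sign-flip permutation test over 3 arms would rest on widths the rule used. Shares have exact 95% binomial intervals. Interval functions were tested on simulated data. Transcripts matched GENCODE M21 with the same version for 1511 members, each with equal start and end. The RefSeq promoter table matched 1022 of 1389 member genes (73.6%), too few for a comparison of composition (that check is void), so windows at the assigned start sites were read from the genome. Members, gene lists and tests were chosen with earlier results of these data known.

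Genes were named by rule: the 3 widest members of each gene list, the 10 widest and 5 narrowest members, the 5 most variable, 5 in each direction with the largest least change over arms, the 10 overlapped in most H4K8ac lists and the peaks next to the width limit. Genes outside it were named after their values were seen (Irs4, Wnt1 and other listed family members, and the gene runs). Alternatives tried were other overlap, width and promoter rules, other anchoring lists, covered bases within 10 kb of the midpoint, 1.5-fold, H4K8ac within 1 kb and wider gene assignment. Python 3.11.15, pandas 2.3.3, numpy 2.4.6 and scipy 1.17.1 were used.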

Additional observations from a re-analysis of the deposited data

Results flagged for a closer look

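The exercised lists had the wider members in 2 arms and the narrower members in the third, with median log2 ratios of matched width of 0.34 in SIT, 0.081 in left separate and -0.80 in right separate. The difference between arms was not tested, since there is 1 list per group and no value per sample. It is shared with all peaks of the sedentary SIT list under 20000 bp, and in each arm the longer list had the wider members.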

How the results depend on the processing

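The number of members stayed within 1.5 times of 1523 under every alternative rule, from 1046 when each other list had to cover at least 50% of the peak to 1953 when presence in the exercised right separate list was not asked. Anchored on the other lists it was 1458 to 1887. The mean of the arm medians turned from -0.13 to 0.21 without the right separate arm. Divided by the median ratio of all shared peaks, the arm medians turned to -0.23 (SIT), -0.088 (left separate) and 0.23 (right separate). Their mean was then -0.029. Under the other alternatives the mean was between -0.36 and -0.066. With 1.5-fold in place of 2-fold, wider members were 521, 266 and 4 and narrower members 18, 96 and 964 in SIT, left and right separate. Counted as covered bases within 10 kb of the midpoint, 2-fold wider members were 149, 57 and 0 and narrower members 3 and 13 in SIT and left separate, and these windows cap wide domains. With H4K8ac counted within 1 kb, members near a peak were 33 and 75 (sedentary and exercised SIT), 67 and 21 (left separate) and 56 and 30 (right separate). With at least 50% of the H4K8ac peak inside the member they were 6 and 10, 7 and 2, and 6 and 2. Listed genes with any peak in all lists, whatever its width and class, were 319 against 165 among members, without a share over all protein-coding genes for the former. No paired analysis was possible because there is 1 list per group, with no values per sample. Depth is unknown, so a missing match cannot be told apart from a shallow list.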
